A study of Mus musculus with 12 samples.

Results

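Accessible chromatin was examined at the 8 genes of the SoxB and SoxC groups of transcription factors, of 21938 annotated protein-coding genes on chromosomes 1 to 19, X and Y. The members were Sox1, Sox2 and Sox3 (SoxB1), Sox14 and Sox21 (SoxB2), and Sox4, Sox11 and Sox12 (SoxC). A domain, one accessible interval of a deposited list, was counted for a gene when it overlapped the transcription start site (TSS) ± 1 kb, overlapped the gene body, or had that gene as the nearest protein-coding TSS. Nearness does not show which gene a domain acts on. Merged across the 6 lists where they overlapped by at least 1 bp, the members' domains formed 359 regions of 218562 in the genome.

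The data were ATAC-seq lists of mouse embryonic stem cells differentiated towards motor neurons as embryoid bodies, with 12 samples in 6 groups. EB (embryoid bodies before patterning) and progenitor (day 2) came from the parental Ainv15(iCre) line. The progenitor group and every day 4 group received RA (retinoic acid) at 1 µM and SAG, a Hedgehog pathway agonist, at 0.5 µM. The noDox group (day 4) came from the Ainv15(iFlag.Hoxc6) line without induction. The iHoxc6, iHoxc9 and iHoxc10 groups (day 4) each came from 1 line with a single Flag-tagged Hox transgene at the HPRT locus, induced with doxycycline (Dox) at 3 µg/mL for 48 h. Each group had 2 samples but only 1 list, made by the authors from both, so no value below has a replicate error and no difference could be tested against one. The values are descriptions of 6 lists. Sequencing depth per list was unknown.

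Several properties of the lists touch every comparison. The lists held between 56232 (iHoxc10) and 94875 (EB) domains, which covered between 17.8 Mb (iHoxc9) and 29.7 Mb (noDox). The noDox list had 3 further constant columns and possibly other calling settings, and belongs to a later set of sample records. Calling settings, sample records and the noDox comparisons cannot be told apart, nor can cell line and the comparison of progenitor with day 4. For iHoxc9 and iHoxc10, cell line and induction cannot be told apart either. The labels were checked on promoter domains of marker genes. Of 5 pluripotency markers, 4 had one in EB (not Esrrb), 2 in progenitor (Zfp42 and Klf4) and 1 in each day 4 list (Klf4). All 4 progenitor markers had one in EB, progenitor, iHoxc6 and iHoxc9, and 3 in noDox and iHoxc10, where Pax6 had none. The 5 motor neuron markers already had one each in EB, and 4 of 5 (not Chat) had one in iHoxc9, so they did not separate the stages. Of 5 mesoderm and endoderm markers, between 2 (iHoxc9, iHoxc10) and 4 (EB, progenitor) had a promoter domain. Of 2 glial markers Gfap had one in every list and Aqp4 in none.

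Sox proteins bind DNA through an HMG box and usually act together with partner factors such as POU proteins. SoxB1 factors hold neural progenitors in an undifferentiated state, and Sox2 also serves the pluripotent state. SoxB2 factors counteract SoxB1, and SoxC factors are switched on as progenitors become neurons, where they support neuronal gene expression.

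The sequences of 3 regions show some of the patterns that the members' accessible sites took. For each pattern the region shown was the widest of any member outside annotated exons, and the central 300 bases are printed on the plus strand of GRCm38 (mm10). The first, 66.7 kb downstream of the Sox4 TSS and in no annotated gene, was held by EB alone (549 bp wide, chr13:28886736-28887284, bases chr13:28886860-28887159 printed). The second, 451 kb upstream of Sox11 and in no annotated gene, appeared only with induced Hoxc9 or Hoxc10 (chr12:27792844-27793315, bases chr12:27792930-27793229 printed). The third, 6.0 kb downstream of the Sox21 TSS and beyond the end of the gene, was held by every list (chr14:118229756-118232311, bases chr14:118230884-118231183 printed). Capitals mark ACAAAG and ACAATG, cores bound by Sox HMG boxes, ATGCAAAT, the POU octamer, and TTTAT, the core of posterior Hox sites, each on either strand.
Sox4 EB region: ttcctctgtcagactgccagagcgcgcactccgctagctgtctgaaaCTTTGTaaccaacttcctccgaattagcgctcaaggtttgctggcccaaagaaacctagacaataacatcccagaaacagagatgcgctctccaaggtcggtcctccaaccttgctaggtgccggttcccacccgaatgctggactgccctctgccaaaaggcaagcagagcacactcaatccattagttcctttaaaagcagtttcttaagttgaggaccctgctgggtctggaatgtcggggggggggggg
Sox11 induced region: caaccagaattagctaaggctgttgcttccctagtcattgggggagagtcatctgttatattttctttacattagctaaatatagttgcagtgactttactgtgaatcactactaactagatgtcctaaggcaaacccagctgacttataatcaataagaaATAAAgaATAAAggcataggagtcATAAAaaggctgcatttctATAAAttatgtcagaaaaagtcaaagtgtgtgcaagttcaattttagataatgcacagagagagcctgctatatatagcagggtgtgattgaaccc
Sox21 constant region: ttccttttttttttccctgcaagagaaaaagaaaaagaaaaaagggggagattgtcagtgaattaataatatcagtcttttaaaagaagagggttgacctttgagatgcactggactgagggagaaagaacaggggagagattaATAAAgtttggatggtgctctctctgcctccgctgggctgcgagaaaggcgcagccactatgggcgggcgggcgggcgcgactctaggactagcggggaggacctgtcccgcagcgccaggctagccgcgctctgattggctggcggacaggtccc

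The Sox4 EB sequence held 1 match to ACAAAG, which 27.3% of the 300 bp windows centred on the 218562 regions held at least once. The Sox11 induced sequence held 4 matches to TTTAT (read as its reverse complement in all 4), and 3.56% of windows held at least 4. The Sox21 sequence held 1 TTTAT match, and 50.5% of windows held at least 1. TAAT, a central Hox core, is not marked. It had 5 matches in the Sox11 sequence, 5 in the Sox21 sequence and 2 in the Sox4 sequence, and 72.8% of windows held at least 1. The Sox11 sequence was also AT-rich, with a GC content of 36.3% against 52.7% (Sox21) and 53.7% (Sox4). The shares of windows were not matched for GC content. These matches describe letters in the window and not bound sites.

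Accessible length over the 8 members was larger in progenitor than in EB and smallest among the later lists in iHoxc9. Together the members' domains covered 38.6 kb in EB, 60.5 kb in progenitor, 67.3 kb in noDox, 57.9 kb in iHoxc6, 33.7 kb in iHoxc9 and 48.5 kb in iHoxc10. The number of domains was 148, 159, 168, 155, 106 and 120 in the same order. The median width of the members' domains was 135 bp in EB and 182 bp in progenitor, against 129 and 138 bp over all domains. The order of EB and progenitor in number depended on the setting, with 86 against 113 domains in lists of equal length and 75 against 59 within 50 kb of the TSS. As a share of all covered bases, the members took 0.168% in EB, 0.190% in iHoxc9 and between 0.226% and 0.241% in the other 4 lists. Narrow domains under 50 bp made up between 17.5% (iHoxc10) and 36.8% (iHoxc9) of the members' domains, against 15.7% and 30.2% of all domains of those lists.

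**Figure D1:**
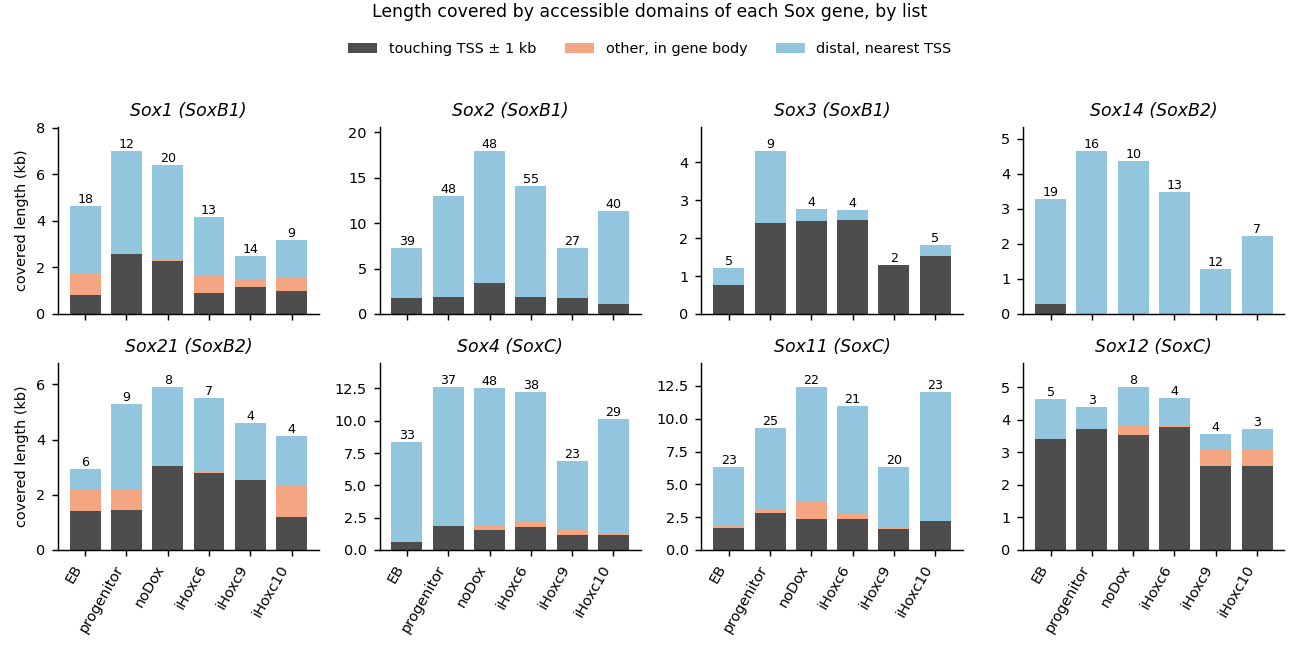
Length covered by the domains of each of the 8 Sox genes (kb, vertical axis, scaled per gene) in the 6 lists (horizontal axis), stacked into domains that touch TSS ± 1 kb, other domains in the gene body, and distal domains with that gene as nearest TSS; the number above each bar is the number of domains. Sox3 went from 1210 bp in EB to 4296 bp in progenitor, Sox14 had a promoter domain in EB only, and Sox12 stayed between 3562 and 5003 bp. Each bar is 1 list, so there are no error bars.

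Promoter domains distinguished Sox14 from the other 7 members. A domain overlapped TSS ± 1 kb in all 8 members in EB and in 7 of 8 in each of the other lists. The background over all protein-coding genes was 65.6% in EB, 63.0% in progenitor, 62.1% in noDox, 62.3% in iHoxc6, 59.3% in iHoxc9 and 59.0% in iHoxc10. Sox14, a SoxB2 gene of ventral interneurons outside the motor neuron lineage, had a 284 bp promoter domain in EB, narrower than most (12.8% of EB promoters with a domain had less), and none later. The widest were those of Sox12, whose promoter domains covered 3406, 3718, 3521, 3780, 2568 and 2569 bp from EB to iHoxc10, more than at least 99.4% of promoters with a domain in each list.

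Promoter domains were wider in progenitor than in EB at every SoxB1 gene, though little at Sox2. They were also wider at the SoxC genes Sox4 (584 to 1829 bp), Sox11 (1672 to 2790 bp) and Sox12 (3406 to 3718 bp). Sox1, which marks neural progenitors, had 807 bp in EB, 2583 bp in progenitor, 2293 bp in noDox, and 905, 1147 and 971 bp in iHoxc6, iHoxc9 and iHoxc10. The progenitor and noDox values stood above 99.2% and 96.7% of promoters, and the EB and iHoxc6 values above 58.3% and 56.7%. Part of the Sox1 difference was a split of the domain, since in EB and the induced lists separate domains lay further along the single exon. Sox3, a SoxB1 gene on chromosome X, had 758 bp in EB, between 2409 and 2470 bp in progenitor, noDox and iHoxc6, 1303 bp in iHoxc9 and 1518 bp in iHoxc10. At Sox2 the promoter domains covered 1761, 1918, 3432, 1900, 1750 and 1138 bp from EB to iHoxc10, wide in every list but iHoxc10, where 77.2% of promoters were narrower. At Sox2, too, domains were split, and the whole merged region over the TSS held 3432 bp in noDox and 3118 bp in iHoxc6. Summed over SoxB1, promoter length was 2.08-fold that of EB in progenitor, against 1.47-fold for SoxC. Over the whole merged TSS regions, which does not depend on such splits, it was 1.63-fold (4716 to 7665 bp) and 1.41-fold (5896 to 8337 bp). By gene these ratios were 3.18 for Sox3, 1.48 for Sox1 and 1.21 for Sox2. The SoxC genes had similar ones, 3.13 for Sox4, 1.46 for Sox11 and 1.09 for Sox12. In iHoxc9 the merged TSS regions had 0.554-fold the noDox length for SoxB1 and 0.776-fold for SoxC.

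**Figure D2:**
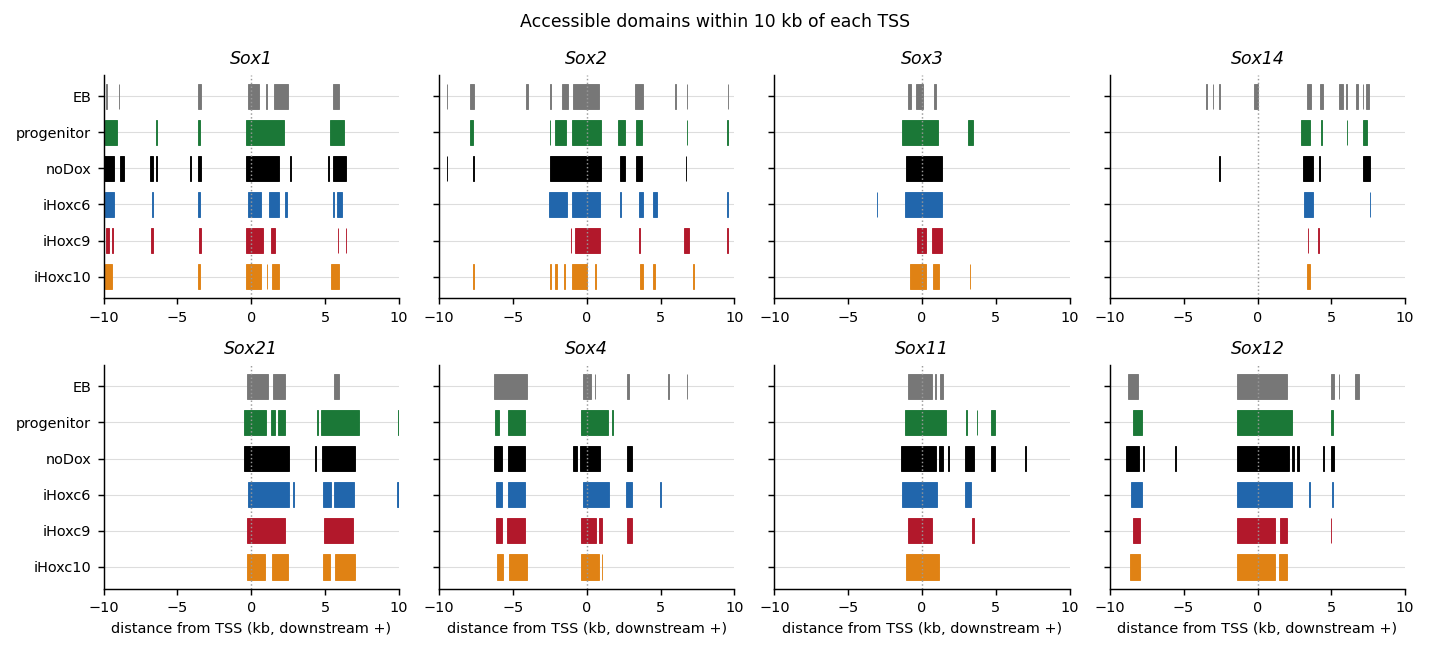
Domains assigned to each Sox gene within 10 kb of its TSS (distance in kb on the horizontal axis, positive in the direction of transcription, dotted line at the TSS), with 1 row per list; filled boxes are domains drawn to scale. A domain overlaps the TSS ± 1 kb of each gene in every list except that of Sox14, which has a 284 bp domain in EB and none later, and the block about 6.0 kb downstream of the Sox21 TSS covers 352 bp in EB and 1810 to 2556 bp in the other lists.

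Promoter sequence was available from RefSeq (GRCm38.p6, 250 bases before to 50 after the start) for 7 of 8 members, not for Sox3. CpG content was above the median of 32851 promoters in all 7, with an observed over expected ratio between 0.679 (Sox4) and 1.07 (Sox1, Sox12) against 0.384. The GC content ran from 52.0% in Sox4, just under the median of 52.7%, to 76.7% in Sox12. Sox14 (66.0%) was close to Sox2 (66.3%) and Sox21 (65.7%) in GC content although it had no promoter domain after EB. The POU octamer ATGCAAAT was in 2 of 7 promoters, Sox1 and Sox12, against 1.74% of all, and ACAAAG was in 1 of 7, Sox2, against 18.7%.

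Between EB and progenitor, 5 of 8 members had at least 1.5-fold more covered length and 0 had 1.5-fold less, against 23.0% and 20.8% of the 19591 genes with a domain in either list. The 5 were Sox3, Sox2, Sox21, Sox1 and Sox4. Sox3 covered 1210 bp in EB and 4296 bp in progenitor, 3.55-fold more, a ratio above that of 95.2% of genes. Sox2 covered 7213 and 12989 bp (1.80-fold), and Sox21, the SoxB2 gene that promotes neuronal differentiation, 2931 and 5275 bp (1.80-fold). They stood above 85.7% and 85.6% of genes. Sox1 went from 4637 to 6995 bp and Sox4 from 8375 to 12614 bp, each 1.51-fold, just past the limit, while Sox11 (1.46-fold) and Sox14 (1.41-fold) were just short of it. Counting only domains within 50 kb of the TSS, Sox4 had less in progenitor (4238 to 3410 bp, 0.805-fold), as did Sox14 (1711 to 1127 bp, 0.659-fold), and Sox2 differed by 1.11-fold (5034 to 5601 bp). At Sox4 the merged region over the TSS was still wider in progenitor (584 to 1829 bp). A Sox4 region 5.14 kb upstream was narrower there (2236 to 1393 bp). The larger total length of Sox4 and Sox14 in progenitor thus lay in domains more than 50 kb away. Within 50 kb the ratios of Sox3, Sox21 and Sox1 were 3.79, 1.80 and 1.78. Sox12, a SoxC gene expressed in many tissues, covered 4636 and 4396 bp (0.948-fold). The members' median log2 ratio was 0.59 against 0.12 over all genes with a domain in both lists. Relative to each list's total length, 3 members were higher and 0 lower (all genes 17.3% and 24.7%).

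Progenitor and noDox differed little in the total covered length of the members, which was 1.11-fold in noDox. No member was 1.5-fold higher in noDox (all genes 19.9%) and 1, Sox3, was 1.5-fold lower (all genes 12.7%), with 4296 bp in progenitor and 2754 bp in noDox. The Sox3 difference lay outside the promoter, where progenitor held 8 domains and noDox 3. Sox2 covered 17932 bp in noDox (1.38-fold) and Sox11, a SoxC gene of newborn neurons, went from 9282 to 12424 bp (1.34-fold). Sox4, the SoxC gene expressed alongside Sox11, covered 12614 and 12540 bp. Scaled to list length, 0 members were higher and 1 lower (all genes 12.9% and 16.9%).

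The 3 induced lists share the noDox list as control, so their values are given side by side. In iHoxc6, 0 members were 1.5-fold higher (all genes 8.51%) and 1, Sox1, was lower (22.3%). The iHoxc9 list had 0 higher (4.13%) and 6 lower (60.6%), all but Sox21 and Sox12. In iHoxc10, 0 were higher (3.62%) and 4 lower (47.4%), which were Sox1, Sox2, Sox3 and Sox14. These shares of members were read against lists that were shorter as a whole. The total length of the induced lists was 0.833, 0.597 and 0.676 times that of noDox, and that of the members 0.861, 0.501 and 0.721 times. Scaled to list length, no member was higher in any of the 3, and 0, 2 and 0 members were lower in iHoxc6, iHoxc9 and iHoxc10. The same scaling over all genes gave 12.0%, 14.5% and 10.1% higher and 12.3%, 22.1% and 19.1% lower.

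Within iHoxc9 the members' log2 ratios to noDox ran from -1.78 to -0.37. The 5th and 95th percentiles over all genes with a domain in both lists were -2.18 and 0.19. Sox14 had 0.292-fold the noDox length (4362 to 1274 bp), Sox1 0.390-fold (6384 to 2488 bp), Sox2 0.405-fold (17932 to 7267 bp) and Sox3 0.473-fold (2754 to 1303 bp). The ratios of Sox14 and Sox1 stood above those of only 13.8% and 21.2% of 18536 genes. The SoxC genes were nearer to or above the gene-wide median, with 0.550-fold for Sox4, 0.512-fold for Sox11 and 0.712-fold for Sox12, and Sox21 (0.776-fold) stood above 75.1% of genes. Most of the difference at SoxB1 genes lay in distal domains, which covered 18864 bp in noDox and 6567 bp in iHoxc9 (0.348-fold). In iHoxc10 all 3 SoxC genes had higher ratios to noDox than all 5 SoxB genes. Sox11 covered 12025 bp against 12424 bp (0.968-fold, above 87.4% of genes) and Sox4 10147 bp against 12540 bp (0.809-fold), whereas Sox1 had 0.495-fold and Sox14 0.512-fold. Distal SoxC domains covered 20614 bp in noDox and 19326 bp in iHoxc10, against 18864 and 12058 bp for SoxB1.

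**Figure D3:**
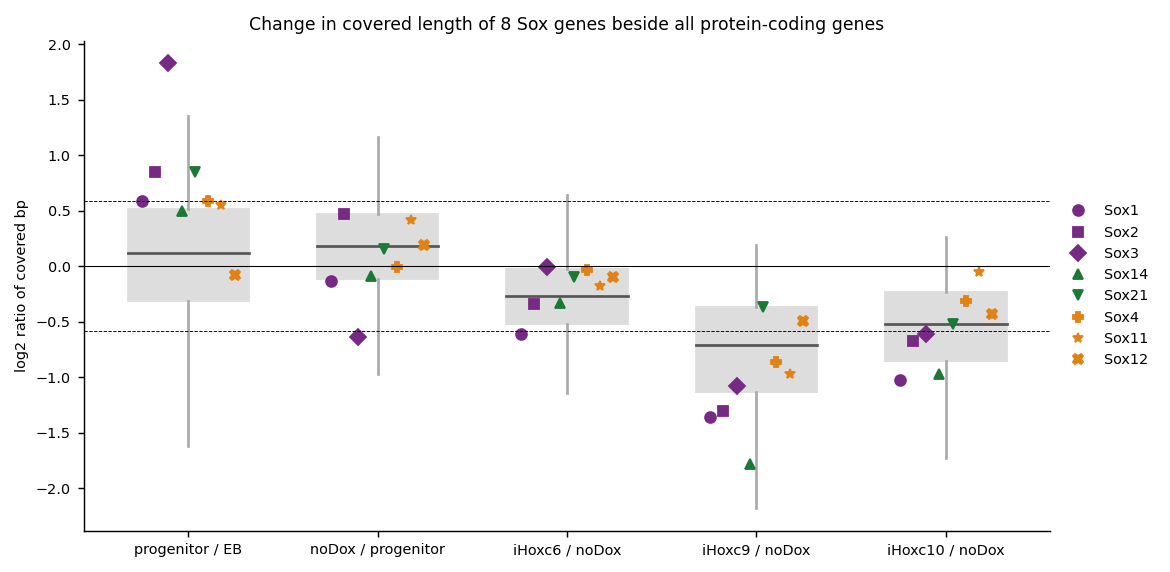
Log2 ratio of covered bp (vertical axis) for 5 pairs of lists (horizontal axis). Symbols are the 8 Sox genes, grey boxes the middle 50% of all protein-coding genes with a domain in both lists, lines inside them the median, whiskers the 5th to 95th percentile, and dashed lines the 1.5-fold limits. For progenitor over EB 7 of 8 members lie above 0, with Sox3 at 1.83, and for iHoxc9 over noDox Sox14 is lowest at -1.78 and Sox21 highest at -0.37.

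Presence by region gave a picture close to the genome. Of the 359 regions, 208 were held by 1 list and 32 by all 6. EB alone held 72 (20.1%, 95% Clopper-Pearson interval 16.0 to 24.6), against 21.1% of all regions. EB and progenitor without any day 4 list held 7 (1.95% against 1.61%), and progenitor alone 35 (9.75% against 12.0%). Progenitor and all 4 day 4 lists, but not EB, held 15 (4.18%, interval 2.36 to 6.80, against 2.77%). A further 62 were in noDox and not in EB or progenitor (17.3% against 15.6%), 69 were in induced lists only (19.2% against 21.3%), and the 32 in all lists made up 8.91% against 11.2%. The intervals cover the counting of regions only, and all of them include the genome-wide share.

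The 15 regions that progenitor and every day 4 list shared without EB belonged to 5 members, with 6 at Sox2, 3 each at Sox14 and Sox11, 2 at Sox4 and 1 at Sox1. The widest at Sox2 lay 90.4 kb upstream within Sox2ot and covered 1066 bp in progenitor, 2243 in noDox, 1353 in iHoxc6, 716 in iHoxc9 and 1210 in iHoxc10. Another at Sox2, 438 kb downstream in no gene, kept between 805 and 1208 bp in those 5 lists. A pair of wide regions 76.5 and 78.7 kb downstream of Sox14 covered 1466 and 1083 bp in progenitor, 1438 and 1063 bp in noDox, and 502 and 127 bp in iHoxc9. Sox14 thus had distal domains in the lists that lacked its promoter domain. At Sox4 the widest such region, 289 kb downstream in an intron of the noncoding gene 2610307P16Rik, covered 649 bp in progenitor, 1278 in noDox, 1174 in iHoxc6, 1155 in iHoxc9 and 1695 in iHoxc10. The widest at Sox11, 281 kb downstream in Gm9866, covered 516, 1013, 684, 400 and 842 bp in the same order.

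Every member had regions held by EB alone, from 2 at Sox3, Sox21 and Sox12 to 20 at Sox4. The widest was the 549 bp region of Sox4 shown above, and Sox14 had one of 523 bp 198 kb upstream. At Sox2 the widest EB-only region (314 bp) lay 41.8 kb downstream, and others of 292 and 281 bp lay 108 and 137 kb downstream. A distal control region downstream of Sox2 is known to serve the gene in embryonic stem cells. The position of that control region was not compared with these domains. The map of the Sox2 locus has a cluster of narrow EB domains downstream that the later lists mostly lack. Of the 104 Sox2 regions, 18 were held by EB alone, against 21.1% of all regions. Around all 8 genes, EB was also the list with the shortest distal length apart from iHoxc9, with 25854 bp against 20383 bp in iHoxc9 and 35426 to 46701 bp elsewhere.

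**Figure D4:**
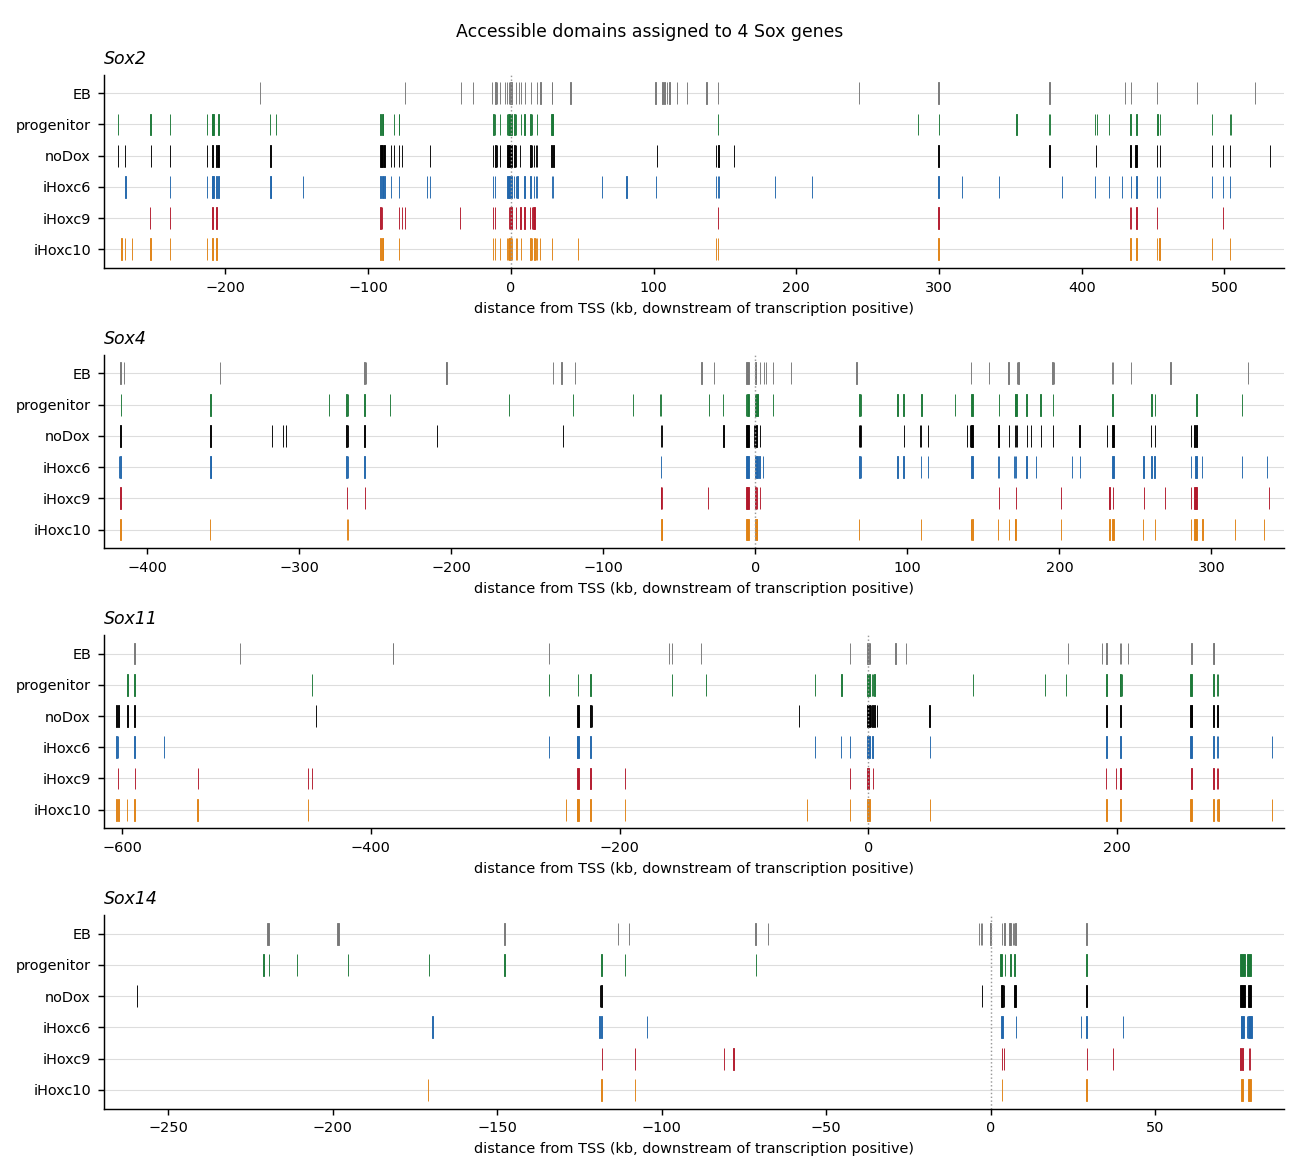
All domains assigned to Sox2, Sox4, Sox11 and Sox14 by distance from the TSS (kb, horizontal axis, positive downstream, dotted line at the TSS), with 1 row per list; narrow domains are drawn with a minimum line width so that they can be seen. Sox2 has a cluster of EB domains about 108 kb downstream, blocks 90.4 kb upstream and 438 kb downstream that begin in progenitor, and Sox14 has blocks 76.5 and 78.7 kb downstream in every list but EB.

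Regions held by both progenitor and noDox, 93 at the members, were followed into the induced lists, a measure chosen after earlier values were seen. Absent from iHoxc6 were 16 (17.2%, interval 10.2 to 26.4, against 11.7% of 48532 regions), from iHoxc9 37 (39.8%, 29.8 to 50.5, against 27.5%) and from iHoxc10 30 (32.3%, 22.9 to 42.7, against 26.6%). By gene, 15 of 23 such regions at Sox4, 14 of 30 at Sox2, 2 of 3 at Sox3 and 2 of 12 at Sox11 were absent from iHoxc9. At the other genes these were 2 of 11 at Sox1, 1 of 6 at Sox14, 1 of 5 at Sox21 and 0 of 3 at Sox12. The widest absent region was at Sox4, 142 kb downstream in 2610307P16Rik, with 946 bp in progenitor, 902 in noDox, 1373 in iHoxc6, 700 in iHoxc10 and 0 in iHoxc9. At Sox2 a region 213 kb upstream in Sox2ot covered 523, 410, 368 and 259 bp in progenitor, noDox, iHoxc6 and iHoxc10, and was likewise absent from iHoxc9. iHoxc9 was the list with the least covered length, and the part of list length in these absences was not tested.

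Some member regions were instead wider in an induced list than in noDox. Among regions with at least 200 bp in the induced list, 13 of 67 (19.4%) were at least 1.5-fold wider for iHoxc6, 7 of 36 (19.4%) for iHoxc9 and 12 of 57 (21.1%) for iHoxc10. The background was 20.1%, 18.9% and 17.5% of all regions. A region 14.9 kb downstream of the Sox2 TSS in Sox2ot covered 74 bp in noDox, 0 in iHoxc6, 319 in iHoxc9 and 260 in iHoxc10. The gene as a whole had 0.405-fold the noDox length in iHoxc9. Similarly, a Sox4 region 287 kb downstream covered 63, 118, 419 and 462 bp in noDox, iHoxc6, iHoxc9 and iHoxc10. The Sox11 region 451 kb upstream, whose sequence is shown above, covered 472 bp in iHoxc10, 33 bp in iHoxc9 and none in the other 4 lists. A region 324 kb downstream of Sox11 was held by iHoxc6 (216 bp) and iHoxc10 (354 bp) alone.

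Motifs were counted in the 200 bp centred on each domain, which reach past the ends of domains narrower than 200 bp. There the Sox core ACAAAG had a larger share at the members than over all domains in every list. It was in 32.9% of the members' windows in iHoxc6 (interval 25.6 to 40.9) against 19.5% of all domains of that list, and in 30.2% (23.2 to 38.0) against 21.8% in progenitor and 26.8% (20.3 to 34.2) against 19.1% in noDox. In iHoxc10 it was 26.7% against 17.8%. It was 19.6% (13.5 to 26.9) against 15.8% in EB and 19.8% (12.7 to 28.7) against 18.0% in iHoxc9. The ACAAAG intervals of EB and iHoxc9 include the share of all domains, and those of the other lists lie above it. The lists are not independent sets of windows. Of the members' 359 regions, 32 were held by all 6 lists and 93 by both progenitor and noDox. A larger number, 208, were held by 1 list. Neighbouring domains of the same region also gave separate windows. The motif shares of different lists thus partly count the same sequences, and the intervals take no account of this. The other Sox core, ACAATG, was in 9.46% against 9.90% in EB, 18.9% against 15.1% in progenitor and 14.3% against 12.7% in noDox. In iHoxc6 it was 14.2% against 13.1%, in iHoxc9 15.1% against 12.0% and in iHoxc10 13.3% against 11.8%. Every ACAATG interval includes the share of all domains. The POU octamer was rare, with 7 of 106 windows in iHoxc9 (6.60%, 2.70 to 13.1, against 1.68%) and 7 of 155 in iHoxc6 (4.52%, 1.83 to 9.08, against 1.58%). Its share was 4.73% (1.92 to 9.50) against 2.36% in EB and 2.98% (0.973 to 6.81) against 1.67% in noDox. The iHoxc10 share was 2.50% (0.519 to 7.13) against 1.68% and that of progenitor 1.26% (0.153 to 4.47) against 1.63%. The octamer intervals of EB, noDox, iHoxc10 and progenitor include the share of all domains. TTTAT, which is part of TGATTTAT, was in 38.7% against 33.5% in noDox, 39.6% against 37.5% in iHoxc9 and 32.5% against 33.2% in iHoxc10. In EB it was 25.7% against 25.8%, in progenitor 29.6% against 31.8% and in iHoxc6 33.5% against 34.1%. Every TTTAT interval includes the share of all domains. Over whole domains the TTTAT density was 2.45 against 1.72 per kb in iHoxc10, the largest ratio of any list (1.42). The ratios of the other lists lay between 1.02 and 1.22. The ACAAAG density in iHoxc10 was 1.03 against 0.831 per kb. TAAT, a central Hox core, was in 46.6% of EB windows and 59.1% to 65.8% of those in the other lists, where all domains had 46.9% and 52.4% to 56.4%. The members' median GC content in these windows lay between 49.0% and 53.0%, within 2.0 percentage points of that of all domains in every list.

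Genes that work with these factors were described the same way, with the percentages above as background. Of 13 SoxB1 partners and targets, 7 were 1.5-fold higher and 3 lower in progenitor than in EB. Higher were Notch1 (1443 to 5516 bp), which maintains progenitors with SoxB1, the Notch target Hes5 (1254 to 3143 bp), and Fabp7 (32 to 365 bp), a radial glia gene. Lower were Pou5f1 (1533 to 0 bp) and Nanog (3839 to 1937 bp), partners of Sox2 in pluripotent cells, and Pou3f1 (3954 to 2526 bp). Of 10 SoxC targets and neuronal genes, 3 were higher in progenitor than in EB, and 7 were higher and 0 lower in noDox than in progenitor. They included Tubb3 (1081 to 3032 bp), a neuronal tubulin that SoxC factors activate, and Dcx (1370 to 2718 bp), a microtubule protein of migrating neurons. In iHoxc9, 10 of 13 and 10 of 10 were lower than in noDox (all genes 60.6%). The counts were 4 and 6 in iHoxc10 (all genes 47.4%) and 1 and 3 in iHoxc6 (all genes 22.3%).

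Of 12 other Sox genes, 11 had a domain to compare. In progenitor 5 were higher and 2 lower than in EB (all genes 23.0% and 20.8%). Sox5 (4524 to 11533 bp), Sox6 (5166 to 11657 bp) and Sox13 (3157 to 6314 bp), the SoxD genes, were among the 5. Sox15 (769 to 360 bp) and Sox18 (1667 to 619 bp) were the 2 lower. Sry, on chromosome Y, had no domain in any list. In iHoxc9 9 of 11 were lower than in noDox, where 60.6% of all genes were lower. The 1 that was higher (all genes 4.13%) was the neural crest and glial gene Sox10 (155 to 289 bp). Sox10 also covered more in iHoxc6 (459 bp) and iHoxc10 (910 bp) than in noDox.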

How the data were processed

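The study's methods state that the authors aligned ATAC-seq reads to mm10 (Bowtie2) and that domains were found with DomainFinder of SeqCode. The processing notes name Bowtie2 2.2.2 and Picard 2.8.2. The deposited lists, 1 per group from both samples, hold start and end positions in bp with no height, read count or p-value. Starts were read as in BED, so positions are uncertain by 1 bp. One list's name carries another day than its label, and the label was used.

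Genes were those of GENCODE M21 (GRCm38), 1 TSS per gene. A gene was called higher or lower at a 1.5-fold ratio of covered bp between 2 lists, and tested genes had a domain in either list. No test over samples was possible. Shares have Clopper-Pearson intervals at 95% for counting only. Motifs were searched on both strands. The named genes were the 8 members, and sites were the widest region of each pattern outside exons; 1 such site is not reported here. The members, lists and measures were chosen with earlier results of these data known. Python 3.11.15, NumPy 2.4.6, SciPy 1.17.1 and Matplotlib 3.10.9 were used, and overlap, merging and nearest-gene steps were checked on simulated data. Alternatives varied domain width, list length, gaps, TSS set, distance, scaling, limits and the control list.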

Additional observations from a re-analysis of the deposited data

How the results depend on the processing

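With 1 list per group, leaving out a replicate could not be run, and no paired analysis was possible because each list was made from both samples. The number of members with a promoter domain was the same in each list at TSS ± 500 bp and with domains of at least 50 or 150 bp, and was 8 of 8 in each list at TSS ± 5 kb. Within 50 kb of the TSS, the log2 ratio of progenitor over EB turned to -0.31 for Sox4 and -0.60 for Sox14, and that of Sox2 was 0.15. Of the 5 members higher in progenitor than in EB, 1 was left at a 2-fold limit and 3 after scaling to list length. At 2-fold, 0 members were lower in noDox than in progenitor, 0 in iHoxc6 and 1 in iHoxc10. In iHoxc9, Sox14, Sox1, Sox2 and Sox3 (0.292-, 0.390-, 0.405- and 0.473-fold) stayed lower at 2-fold. The share of all genes at 2-fold is not given here, so no 2-fold count is set against a background. After scaling, 0, 2 and 0 members were lower in the iHoxc6, iHoxc9 and iHoxc10 lists, and the log2 ratio over all members for iHoxc9 was -0.25. The progenitor list in place of noDox as control was chosen after seeing the data. The log2 ratio over all members was then -0.06 for iHoxc6, -0.84 for iHoxc9 and -0.32 for iHoxc10. The members had 0.958, 0.558 and 0.802 times their progenitor length, against 0.963, 0.691 and 0.782 times for the whole lists. Requiring 50% of a region to be covered moved the share held by progenitor alone to 15.0% (all regions 14.2%), by progenitor and all day 4 lists without EB to 1.95% (1.24%), by all 6 lists to 1.95% (4.07%), and the shares absent from iHoxc6 and iHoxc9 to 29.4% (22.4%) and 70.6% (48.4%). With domains of at least 50 bp, the share of EB and progenitor alone was 0.452% (1.94%), that of induced lists only 11.8% (13.9%), and that absent from iHoxc9 52.6% (29.0%). With at least 150 bp, progenitor and all day 4 lists without EB held 8.23% (4.46%) and induced lists only 11.4% (13.0%). The share absent from iHoxc10 was then 19.3%, below that of all regions (23.0%), where it was above it as reported. The members' domains numbered 97 (EB) and 67 (iHoxc9) at 50 bp or wider. At 150 bp or wider they numbered 70, 89, 88, 81, 50 and 75 from EB to iHoxc10, and with lists of equal length 86 (EB), 105 (noDox) and 102 (iHoxc6). Within 50 kb they numbered 75, 59, 69, 55, 46 and 47 and covered 25684, 32907, 36334, 30698, 20644 and 22661 bp. The ratio of the ATGCAAAT share at the members to that of all domains in iHoxc9 was 3.93 by windows and 1.75 by matches per kb. The cause of these shifts was not tested. Unknown depth and missing replicates limit every value.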
